A study of Mus musculus with 14 samples.

Results

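The genes described here encode lysosomal proteases, glycosidases, lipid-handling proteins and membrane proteins, together with the regulator Tfeb. They were chosen by name, as a list of 31 gene symbols written around cathepsin C (Ctsc), and the question was whether the high Ctsc level of NSCs made in chimeric embryos extended to other lysosomal genes. Of the 31 genes, 29 had a probe on the array, and no probe was listed under Npc1 or Cd68. In 24 genes at least 1 probe was kept after filtering (36 of 45 probes), out of 8435 genes of the whole table with a kept probe. Ctsh, Ctsk, Ctss, Gla and Tfeb were near background on most arrays and are described separately.

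Gene expression was measured with Illumina MouseRef-8 v2 arrays in 7 groups of mouse cells, 2 arrays each. Brain-NSCs, the reference, were neural stem cells (NSCs) from the brains of 13.5 dpc (days post coitum) fetuses heterozygous for OG2 (Oct4-GFP) and for ROSA26 (neo/lacZ), and MEFs were embryonic fibroblasts of the same age and genotype. iPSCs had been made from OG2/ROSA26 MEFs with retroviral Oct4, Sox2, Klf4 and c-Myc, and iPS-NSCs #1 and #3 were lines differentiated from them in vitro. iPS-cNSCs were differentiated from iPSCs in vivo. The iPSCs were aggregated with B6C3F1 embryos, and NSCs were cultured from brains of the 13.5 dpc chimeras under neomycin. The ROSA26 transgene gives resistance to neomycin. NED-cNSCs were X-gal-negative NSCs from the chimeric embryos, of normal (B6C3F1) embryo origin, and they carried neither the reprogramming factors nor Oct4-GFP. Comparisons of NED-cNSCs with OG2/ROSA26 cells cannot tell strain apart from cell source. Selection under neomycin is described for iPS-cNSCs only, so comparisons of iPS-cNSCs with other groups cannot tell it apart from cell source either. ESCs came from 3.5 dpc blastocysts, are labelled as OG2 heterozygous, and were grown on MEF feeder cells. Only iPS-NSCs and iPS-cNSCs therefore carried the 4 retroviral factors. Whether the 2 arrays of a group were from different cultures is not stated in the sources. The p-values below cover only the spread between the 2 arrays of a group, and that spread may be technical. It was pooled over the 7 groups and drawn toward the typical spread of all probes. The 2 iPS-cNSC arrays differed by 0.227 on average over the kept lysosomal genes, against 0.0873 to 0.138 in the other groups. For iPS-cNSCs the pooled spread may therefore be too small.

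Lysosomes are acidic organelles in which proteins, glycans and lipids are broken down. Cathepsins and other proteases are made as precursors, sorted to the lysosome on mannose 6-phosphate receptors and activated at low pH, while glycosidases trim sugar chains and membrane proteins such as LAMP1 and LAMP2 line the organelle. Many of these genes carry E-box elements at their promoters, which are bound by TFEB and its relative TFE3, and in brain the loss of single hydrolases causes storage diseases of neurons and glia.

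Because the E-box is the element by which lysosomal genes are known to be regulated together, the promoters of the 31 genes were searched for it. The search covered 250 bases before and 50 bases after each RefSeq start site (GRCm38.p6), and 27 genes had at least 1 such window. The E-box CACGTG was found in 10 of the 27 genes (37%), against 8.09% of all 27025 mouse genes with a window. The longer form TCACGTGA, which contains the shorter one, was found in 4 genes (14.8%), Ctsa, Ctsd, Gla and Mcoln1, against 1.12% of all genes. Both words read the same on either strand. The 250 bases before the start are shown for Lamp1, the gene with the most E-boxes (4), for Mcoln1, which had 1 of each form, and for Ctsc, whose window had none. E-boxes are in capitals, and all 3 genes lie on the plus strand.
Lamp1, chr8:13158911-13159160: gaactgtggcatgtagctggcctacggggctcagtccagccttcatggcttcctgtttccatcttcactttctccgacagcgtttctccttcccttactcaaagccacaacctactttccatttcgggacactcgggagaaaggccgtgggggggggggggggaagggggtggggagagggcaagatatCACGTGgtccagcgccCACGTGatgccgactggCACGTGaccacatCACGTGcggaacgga
Mcoln1, chr8:3500269-3500518: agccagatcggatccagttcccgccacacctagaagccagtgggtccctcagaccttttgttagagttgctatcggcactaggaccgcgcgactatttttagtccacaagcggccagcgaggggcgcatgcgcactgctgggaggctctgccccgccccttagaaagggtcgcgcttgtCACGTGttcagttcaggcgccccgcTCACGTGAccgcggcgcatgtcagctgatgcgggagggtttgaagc
Ctsc, chr7:88277835-88278084: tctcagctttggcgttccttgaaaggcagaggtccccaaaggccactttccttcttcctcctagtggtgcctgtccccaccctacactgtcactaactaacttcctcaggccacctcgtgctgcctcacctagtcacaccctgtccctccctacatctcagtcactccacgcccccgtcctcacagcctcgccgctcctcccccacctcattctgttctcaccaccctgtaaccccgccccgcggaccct

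Ctsc encodes cathepsin C, a dipeptidyl peptidase that activates serine proteases of immune cell granules. Its brightest probe read 12.71 and 12.86 on the iPS-cNSC arrays (normalized log2 values), 7.79 and 7.82 in brain-NSCs, and 7.95 and 7.92 in NED-cNSCs. It read 7.08 on both arrays of iPS-NSCs #1 and 7.28 and 7.17 in iPS-NSCs #3. Values were 9.24 on both ESC arrays and 10.73 and 10.86 in MEFs. The iPS-cNSC arrays were thus the highest of all 14, MEFs came next, and brain-NSCs and NED-cNSCs were close to the detection level. The other 2 Ctsc probes had the same order of these groups, with 11.21 and 11.15 on one probe and 11.43 and 11.25 on the other in iPS-cNSCs.

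**Figure D1:**
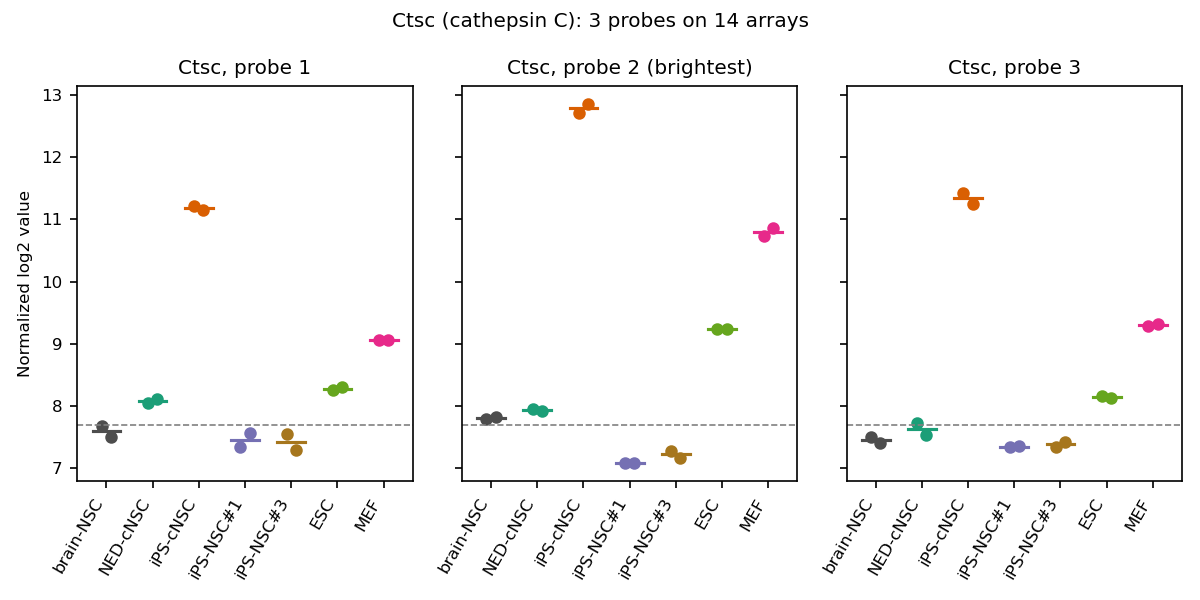
Normalized log2 values of the 3 Ctsc probes on all 14 arrays, with a point for each array, a bar for the mean of a group, and a dashed line at the detection level of 7.7, which was set on the deposited values. On every probe both iPS-cNSC arrays are the highest, between 11.15 and 12.86, followed by MEFs and ESCs.

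Relative to brain-NSCs, Ctsc was 31.6-fold higher in iPS-cNSCs on the brightest probe (log2 change 4.98, SE 0.08), with a log2 change of 3.58 on another. On the remaining probe brain-NSCs were not above background, and iPS-cNSCs were at least 12.9-fold higher. The gene was on the list because of this rise, so the change is given as a description and without a test. The difference from NED-cNSCs of the same kind of embryo was 4.85 on the log2 scale (SE 0.08). Neither iPS-NSC line was above background on the brightest probe, and iPS-cNSCs were at least 35.0-fold higher than the iPS-NSCs. Such lower bounds set the measured mean of the brighter group against the lowest value counted as detected on the arrays of the dimmer group, or against the dim probe's own value where that was higher.

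Among the other 23 lysosomal genes, iPS-cNSCs had 5 genes that were up-regulated compared to brain-NSCs and none that was down-regulated. A gene was counted at a Benjamini-Hochberg adjusted p under 0.05 over all kept probes (limma) and a change over 2-fold. By this rule 3.81% of all genes were higher and 2.51% were lower in iPS-cNSCs. With Ctsc the count was 6 of 24 genes, and it was 10 when the intensities were background-corrected and normalized with neqc. The share of all genes passing was not counted for neqc, so the count of 10 has no such share beside it. The change was above 0 in 22 of the 24 genes (21 of 23 without Ctsc), against 46.1% of all genes. The median log2 change was 0.66 (0.63 without Ctsc) against -0.04 over all genes. These arrays were made from bulk samples, in which fewer cells of a type and less RNA per cell cannot be told apart.

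Glycosidases held 3 of the 5 up-regulated genes. Hexa, the alpha subunit of beta-hexosaminidase, which degrades the ganglioside GM2, read 11.51 and 10.96 in iPS-cNSCs and 8.97 and 8.94 in brain-NSCs. It read 10.42 and 10.70 in NED-cNSCs, 9.67 and 9.80 in iPS-NSCs #1, and 9.62 and 9.64 in iPS-NSCs #3. Both iPS-cNSC arrays were above every other NSC array, and both brain-NSC arrays were the lowest of the 14. The log2 change in iPS-cNSCs was 2.28 (SE 0.14, adjusted p = 3.9e-09), a 4.86-fold rise.

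Man2b1, the lysosomal alpha-mannosidase, read 11.60 and 11.80 in iPS-cNSCs, 10.23 and 10.21 in brain-NSCs, and 11.04 and 10.98 in NED-cNSCs. It read 10.65 and 10.77 in iPS-NSCs #1 and 11.26 and 11.37 in iPS-NSCs #3. Here too the iPS-cNSC arrays were above all other NSC arrays, and the log2 change relative to brain-NSCs was 1.47 (SE 0.09, adjusted p = 4.27e-09). Neu1, the lysosomal sialidase, read 10.66 and 10.84 in iPS-cNSCs and 9.52 and 9.53 in brain-NSCs. The other NSC groups were also above brain-NSCs, at 10.66 and 10.50 in NED-cNSCs, 10.30 and 10.29 in iPS-NSCs #1, and 11.14 and 11.04 in iPS-NSCs #3. Neu1 rose by 1.23 on the log2 scale in iPS-cNSCs (SE 0.09, adjusted p = 3.15e-08), but its highest NSC values were those of iPS-NSCs #3. Gaa (acid alpha-glucosidase), Glb1 (beta-galactosidase) and Gusb (beta-glucuronidase) had log2 changes of 0.17, 0.51 and 0.32 and stayed under 2-fold.

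The other 2 up-regulated genes encode membrane proteins. Lamp1, a major glycoprotein of the lysosomal membrane, read 14.94 and 14.04 in iPS-cNSCs and 13.12 and 13.18 in brain-NSCs. It read 13.63 and 13.45 in NED-cNSCs, 13.83 and 14.01 in iPS-NSCs #1, and 13.70 and 13.79 in iPS-NSCs #3. The iPS-cNSC arrays differed from each other by 0.904, the widest gap between replicate arrays among the 24 genes, and the lower of them was just above the nearest iPS-NSC #1 array. The log2 change was 1.34 (SE 0.19, adjusted p = 2.31e-05), and without iPS-cNSC replicate 1 it was 0.89, which is under 2-fold.

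Cd63, a tetraspanin of late endosomes and lysosomes, read 13.90 and 13.47 in iPS-cNSCs, 12.46 and 12.40 in brain-NSCs, and 13.69 and 13.72 in NED-cNSCs. It read 13.46 and 13.43 in iPS-NSCs #1 and 12.81 and 12.87 in iPS-NSCs #3. The arrays of iPS-cNSCs and NED-cNSCs overlapped, and both groups were above brain-NSCs. The log2 change in iPS-cNSCs was 1.25 (SE 0.11, adjusted p = 2.84e-07) on the brightest of 3 probes, against 0.88 and 0.26 on the others, and 0.80 with the mean of the 3 probes. Lamp2, the second major membrane glycoprotein, had a log2 change of 0.82 on its brightest probe and passed the rule on another of its 4 probes (1.10, adjusted p = 8.27e-07), while the other 2 were at 0.86 and 0.49. Scarb2, the receptor that carries glucocerebrosidase to lysosomes, and Mcoln1, a cation channel, had changes of 0.16 and 0.69.

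No protease other than Ctsc passed the rule among the kept probes in iPS-cNSCs compared to brain-NSCs. Ctsb, Ctsl and Ctsz, cysteine cathepsins of general protein breakdown, had log2 changes of 0.84, 0.43 and 0.63, and Ctsf had 0.01. The tripeptidyl peptidase Tpp1 had 0.75. The aspartic protease Ctsd was not above background in brain-NSCs and was at least 1.36-fold higher in iPS-cNSCs. Ctsa, the carboxypeptidase that protects Neu1 and Glb1 in a complex, had -0.11, and the asparaginyl protease Lgmn, which processes cathepsins, had -0.13. These were the only 2 genes below 0. The 4 lipid-handling genes were all above 0 and under 2-fold: Asah1 (acid ceramidase) at 0.89, Npc2 (cholesterol transfer) at 0.70, Psap (the saposin precursor) at 0.55 and Ppt1 (palmitoyl-protein thioesterase) at 0.51.

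**Figure D2:**
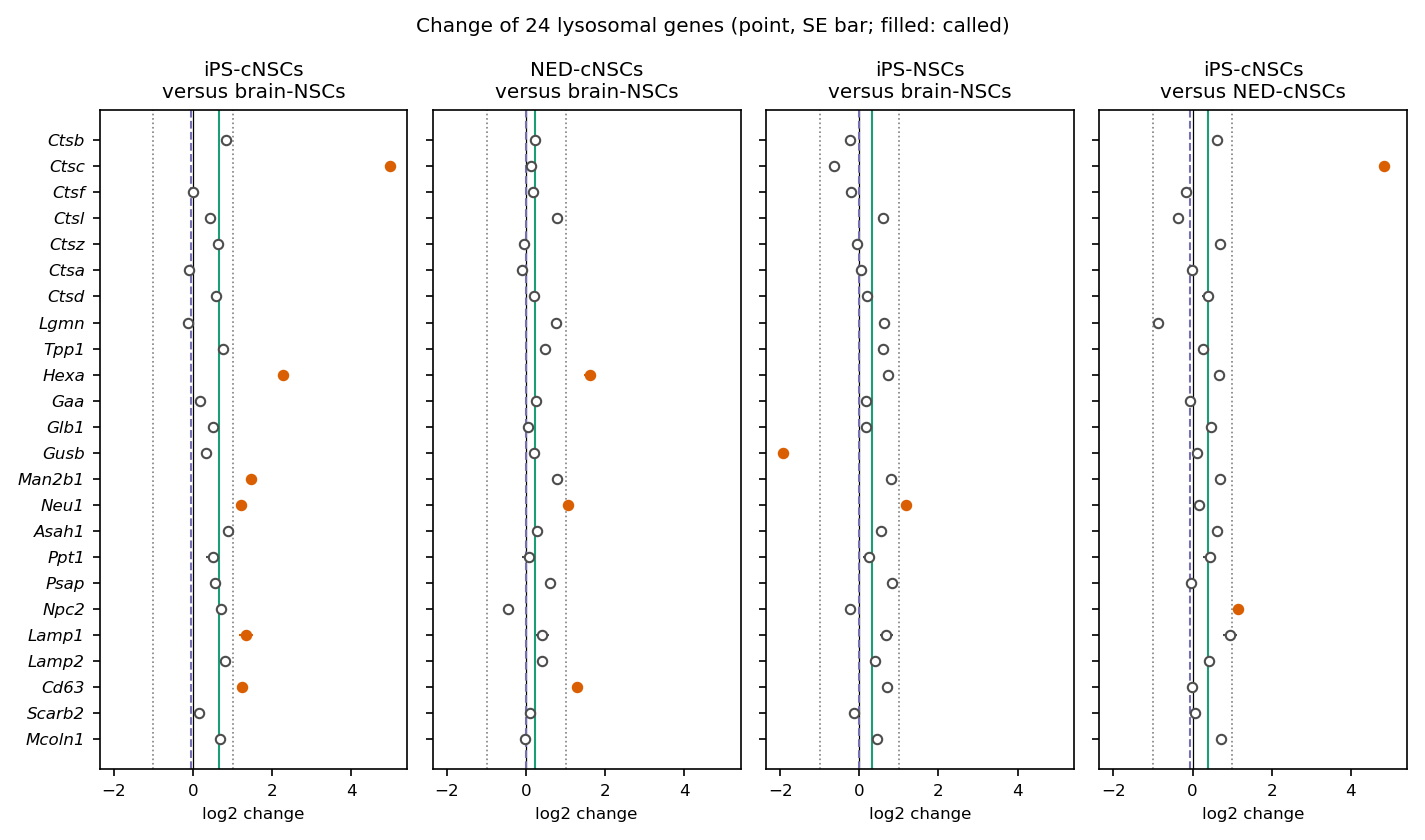
Log2 change of each of the 24 lysosomal genes in 4 comparisons of NSC groups. Points are changes with SE bars from limma, filled where the gene passed the rule, dotted lines mark 2-fold, the solid green line is the median of the 24 genes, and the dashed violet line is that of every gene tested. In iPS-cNSCs compared to brain-NSCs 6 points are filled, among them Ctsc, which was on the list because of its rise. The green line is at 0.66 (0.63 without Ctsc), and Ctsc at 4.98 is far from the rest.

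NED-cNSCs, the NSCs of normal embryo origin from the same kind of chimera, had 3 lysosomal genes up-regulated compared to brain-NSCs and none down-regulated, against 2.58% of all genes higher and 1.71% lower. The genes were Hexa (log2 change 1.61, SE 0.14, adjusted p = 2.45e-07), Cd63 (1.27, SE 0.11, adjusted p = 3.31e-07) and Neu1 (1.06, SE 0.09, adjusted p = 2.16e-07). Neu1 was at 0.98 without NED-cNSC replicate 1, and Cd63 was at 0.86 with the mean of its probes, both under 2-fold. All 3 genes were also among those up-regulated in iPS-cNSCs, but both comparisons use the same brain-NSC arrays. The median log2 change of the 24 genes was 0.24 against -0.01 over all genes, and Ctsc had 0.13 (adjusted p = 0.23).

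iPS-cNSCs and NED-cNSCs were then compared directly, since both came from brains of chimeric embryos. Besides Ctsc, 1 of the 23 genes was higher in iPS-cNSCs and none was lower, against 3.19% higher and 2.3% lower of all genes. With Ctsc the count was 2 of 24, and with neqc of the intensities it was 4, without a count over all genes. The gene besides Ctsc was Npc2, a small protein that hands cholesterol out of the lysosome. It read 11.32 and 11.37 in iPS-cNSCs and 10.12 and 10.26 in NED-cNSCs. Brain-NSCs were between them at 10.63 and 10.66, as were iPS-NSCs #3 at 10.47 and 10.60, while iPS-NSCs #1 at 10.33 and 10.23 overlapped NED-cNSCs. The difference was 1.15 on the log2 scale (SE 0.09, adjusted p = 9.06e-08), and relative to brain-NSCs the change was 0.70 for iPS-cNSCs and -0.45 for NED-cNSCs. The median difference of the 24 genes was 0.40 (0.38 without Ctsc) against -0.05 over all genes. It was 0.70 for the 4 genes on chromosome 8, described below, and 0.21 for the other 20. Hexa differed by 0.67 (adjusted p = 0.000891) and Cd63 by -0.02 (adjusted p = 0.885), and Lgmn was lower in iPS-cNSCs by 0.88 (adjusted p = 1.03e-06), under 2-fold.

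Across NSC groups, both iPS-cNSC arrays were above all 8 other NSC arrays in 12 of the 24 genes (11 of 23 without Ctsc), against 15.6% of all genes. They were Ctsb, Ctsc, Ctsz, Ctsd, Hexa, Glb1, Man2b1, Asah1, Npc2, Lamp1, Lamp2 and Mcoln1, which span proteases, glycosidases, lipid-handling proteins and membrane proteins. Of them, Man2b1, Asah1, Lamp1 and Mcoln1 lie on chromosome 8, whose genes were higher as a set in iPS-cNSCs, as given below. The pattern held on the brightest probe of each gene but not on every probe. One Lamp2 probe read 11.55 and 11.44 in iPS-cNSCs, below NED-cNSCs (11.73 and 11.66) and both iPS-NSC lines, another Lamp2 probe was below both iPS-NSC lines, and the second Asah1 probe overlapped iPS-NSCs #1. Apart from Ctsc, Hexa, Man2b1 and Lamp1, these genes did not pass the rule relative to brain-NSCs on the brightest probe. For Ctsd only a lower bound of 1.36-fold is known, and Lamp2 passed on another probe.

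**Figure D3:**
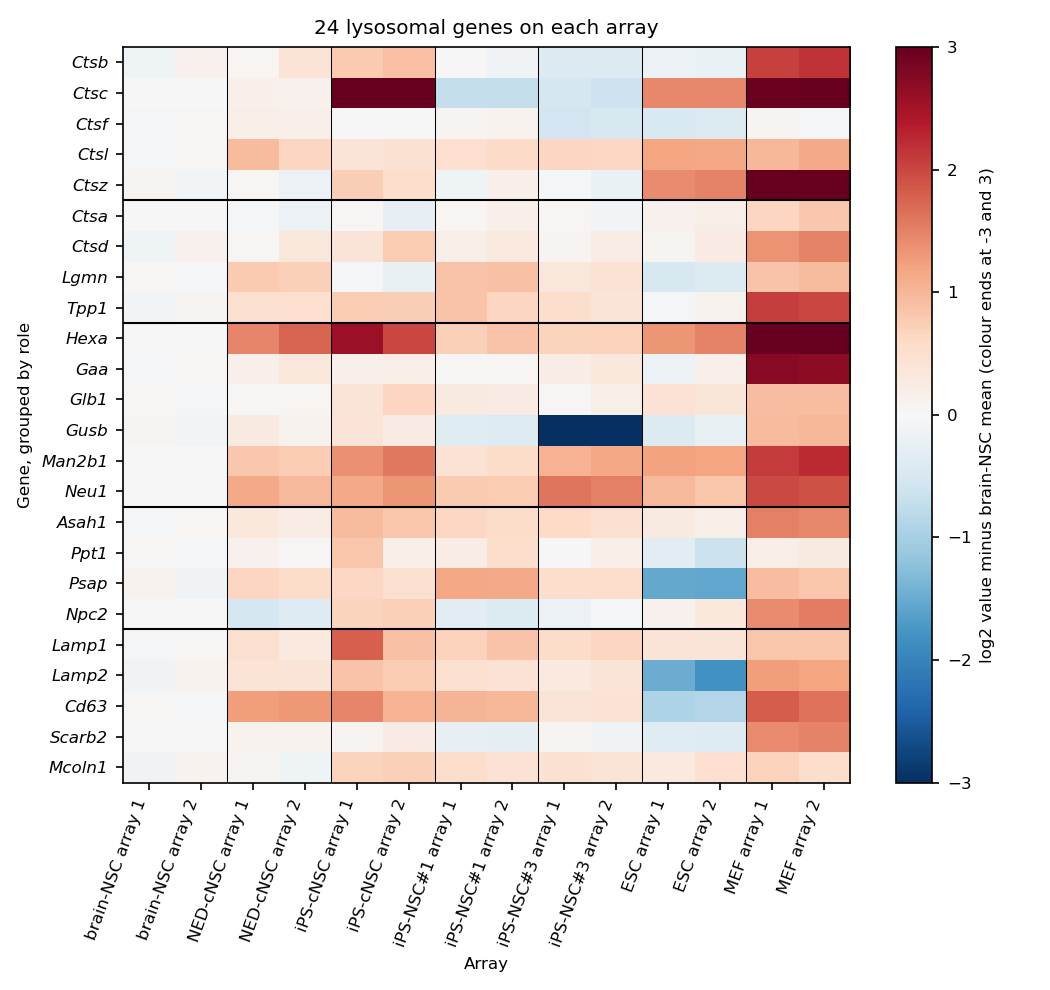
Value of each of the 24 lysosomal genes on each of the 14 arrays, as the difference from the brain-NSC mean (log2), with genes grouped by role in the order cysteine cathepsins, other proteases, glycosidases, lipid handling and membrane proteins. The colour ends at -3 and 3, so Ctsc in iPS-cNSCs (4.98 on average) is beyond the scale. MEF arrays are red in nearly every row, and Gusb is blue on both arrays of iPS-NSCs #3.

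The iPS-NSCs made in vitro, taken as the mean of both lines, had 1 lysosomal gene up-regulated and 1 down-regulated compared to brain-NSCs, against 2.63% and 2.26% of all genes. Neu1 was higher by 1.17 on the log2 scale (SE 0.08, adjusted p = 7.63e-09), and Gusb was lower. The median change was 0.32 against -0.01 over all genes. Lamp2 passed the rule on 1 of its 4 probes only (1.02, adjusted p = 1e-07), with 0.40 on the brightest.

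Gusb encodes beta-glucuronidase, which removes glucuronic acid from glycosaminoglycans. Its brightest probe read 10.35 and 10.34 in iPS-NSCs #1 but 7.20 and 7.26 in iPS-NSCs #3. The values were 10.79 and 10.63 in brain-NSCs, 10.99 and 10.82 in NED-cNSCs, and 11.09 and 10.97 in iPS-cNSCs. ESCs read 10.31 and 10.49 and MEFs 11.67 and 11.71. The 2 arrays of line #3 were thus the lowest of the 14 and not above background, and the same held on the other 2 Gusb probes, which read 7.33 and 7.32 on one and 7.50 and 7.31 on the other. Line #1 was at least 6.4-fold higher than line #3 (adjusted p = 1.7e-12). On the dimmer probes line #3 was also not above background. There line #1 was at least 1.22-fold (adjusted p = 5.54e-05) and at least 1.74-fold higher (adjusted p = 3.23e-05). The measured log2 differences were 0.63 and 1.06, and the latter passed the rule. Gusb was the only one of the 24 genes that passed the rule between the lines, against 1.91% of all genes higher and 1.16% lower in line #1. Of the 59 lysosomal genes outside the list, Arsb and Laptm4a were also higher (1.63 and 1.56) and Cstb lower (-1.23) in line #1. The change of the iPS-NSC mean relative to brain-NSCs (-1.93, SE 0.08, adjusted p = 2.97e-11) therefore combined a line near brain-NSCs with a line at background.

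**Figure D4:**
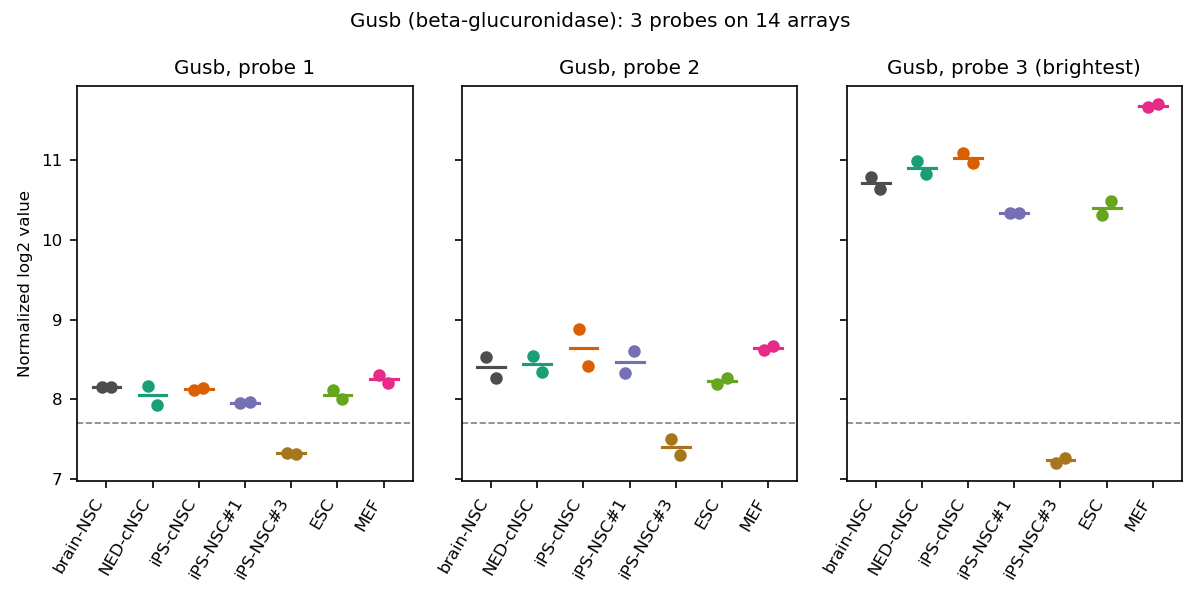
Normalized log2 values of the 3 Gusb probes on all 14 arrays, with a point for each array, a bar for the group mean, and a dashed line at the detection level of 7.7 of the deposited values. Both arrays of iPS-NSCs #3 are at 7.20 to 7.50 on all probes, below every other array.

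Compared to iPS-NSCs, and leaving Ctsc aside, iPS-cNSCs had 3 of 23 lysosomal genes higher and none lower, against 4.96% and 3.11% of all genes, with a median change of 0.33 against -0.05. They were Gusb (2.24, SE 0.08, adjusted p = 3.94e-12), for which line #3 was at background, Hexa (1.55, SE 0.12, adjusted p = 2.87e-08) and Ctsb (1.07, SE 0.10, adjusted p = 1.84e-07). Ctsb, an abundant cysteine cathepsin, read 13.67 and 13.80 in iPS-cNSCs, 12.90 and 12.78 in iPS-NSCs #1, and 12.48 in both arrays of iPS-NSCs #3. It read 12.77 and 13.01 in brain-NSCs and 12.94 and 13.30 in NED-cNSCs, so the iPS-cNSC arrays did not overlap any other NSC group.

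The cathepsins Ctsh, Ctsk and Ctss were measured by probes that were above background on few arrays, and their deposited log2 values were fitted with all probes of the table. Ctsh, an aminopeptidase, read 8.90 and 8.95 in iPS-cNSCs and 8.86 and 8.68 in MEFs, and between 7.42 and 7.80 on the other 10 arrays. It was at least 2.34-fold higher in iPS-cNSCs than in brain-NSCs (adjusted p = 1.61e-09), and it was 1.24 above NED-cNSCs on the log2 scale (adjusted p = 3.74e-09). Ctsk, a collagen-degrading protease known from osteoclasts, read 13.01 and 12.99 in MEFs and at most 7.83 elsewhere, at least 39.4-fold above brain-NSCs (adjusted p = 4.64e-21). Ctss, a protease of antigen-presenting cells, was at 7.95 and 8.04 in MEFs and at 7.61 and 7.78 in iPS-cNSCs. Gla (alpha-galactosidase A) and both Tfeb probes were not above background on any of the 14 arrays.

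**Figure D5:**
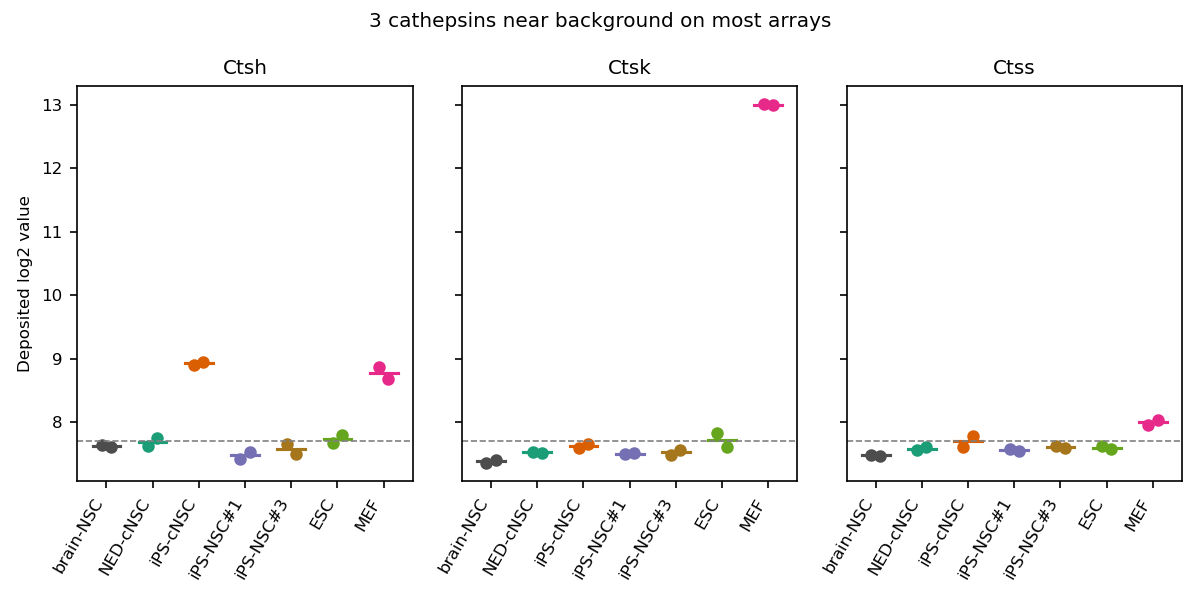
Deposited log2 values of the Ctsh, Ctsk and Ctss probes on all 14 arrays, with a point for each array, a bar for the group mean, and a dashed line at the detection level of 7.7. Ctsh stands above the line in iPS-cNSCs and MEFs, and Ctsk does so in MEFs at about 13.0.

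Ctsc, Ctsh and Ctss are abundant in microglia, so markers of these cells were read on the same arrays. Of 12 microglial markers with a probe, none was above background on both iPS-cNSC arrays and 11 were above background on neither, including Itgam, Tyrobp, C1qa, C1qb and C1qc. Their mean level was 7.43 to 7.46 in iPS-cNSCs and 7.44 to 7.53 in brain-NSCs. Astrocyte markers differed between groups: 8 of 9 were above background on both iPS-cNSC arrays and 4 of 9 on both brain-NSC arrays, with mean levels of 10.02 to 10.03 and 8.88 to 8.90. The exception was Gfap, the astrocyte intermediate filament, which was above background on neither iPS-cNSC array but on at least 1 brain-NSC array. In NED-cNSCs 6 of 9 astrocyte markers were above background on both arrays, in iPS-NSCs #1 5 and in iPS-NSCs #3 7. Of the 6 markers tested, 3 were higher in iPS-cNSCs than in brain-NSCs, Apoe (4.32), Gja1 (3.79) and Sparcl1 (1.40), and none was lower. Gja1 and Sparcl1 were also higher in the mean of the iPS-NSC lines than in brain-NSCs. Relative to NED-cNSCs, 2 of the 6 were higher in iPS-cNSCs and 1 was lower (Gja1, Sparcl1 and Slc1a2 together). The part of these markers' cells in the lysosomal changes was not tested. NSC markers were above background in 5 of 6 genes on both arrays of every NSC group.

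The genes on chromosome 8 had higher values as a set in iPS-cNSCs than in brain-NSCs, with a median log2 change of 0.30 over 461 genes against -0.06 over the 7971 genes elsewhere. Man2b1, Asah1, Lamp1 and Mcoln1 lie on this chromosome and had a median change of 1.12, against 0.56 for the other 20 lysosomal genes. Without chromosome 8, 4 of 20 genes passed the rule: Hexa, Neu1, Cd63 and Ctsc, which was on the list because of its rise. Chromosome 8 was also higher as a set in iPS-cNSCs than in NED-cNSCs (median 0.29 against -0.07 elsewhere) and iPS-NSCs (0.26 against -0.07). Its 4 lysosomal genes had medians of 0.70 and 0.49 in these comparisons, and the other 20 had 0.21 and 0.32. The part of the chromosome in the changes of its 4 genes was not tested.

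Of 59 measured lysosomal genes outside the list, 8 were higher and none was lower in iPS-cNSCs compared to brain-NSCs, against the 3.81% and 2.51% of all genes given above. Of 16 other hydrolases and cofactors 2 were higher, Manba (beta-mannosidase, 1.37) and Arsb (arylsulfatase B, 1.34), and both were also higher in NED-cNSCs (1.29 and 1.10). Of 17 genes for enzyme sorting and membrane proteins 1 was higher, Cln3 (1.53). Of 17 subunits of the V-ATPase, the proton pump that acidifies the lysosome, 2 were higher, Atp6v1a (1.20) and Tcirg1 (at least 1.84-fold), and the median over the subunits was 0.29. The same 2 subunits were higher in the mean of the iPS-NSC lines than in brain-NSCs, with a subunit median of 0.31. In NED-cNSCs the subunit median was 0.35, and Atp6v1d was lower. No subunit passed the rule between iPS-cNSCs and iPS-NSCs (median 0.03). None of 3 cathepsin inhibitors passed the rule. Of 6 regulators of the MiT/TFE factors and their partners 3 were higher, led by Tfe3 (1.29), which acts beside Tfeb, and Flcn (1.07) of the folliculin complex. Tfe3 also differed from NED-cNSCs, by 1.28 (adjusted p = 3.62e-06), and had 0.01 in NED-cNSCs compared to brain-NSCs. The cathepsin inhibitor Cstb was higher in NED-cNSCs (1.84) and in the mean of the iPS-NSC lines (1.00), which differed from each other as given above, than in brain-NSCs, and was at -0.09 in iPS-cNSCs.

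Of the genes up-regulated in iPS-cNSCs, Lamp1 was the only one with an E-box in the searched window. Ctsc, Hexa, Man2b1, Neu1 and Cd63 had none, which says only that these letters are not in these windows. Among genes with the longer form, Ctsa had a log2 change of -0.11 and Mcoln1 0.69, Ctsd was at least 1.36-fold higher, and Gla was at background. The remaining genes with an E-box were Ctsf (0.01), Ctsl (0.43), Gaa (0.17), Glb1 (0.51) and Lgmn (-0.13).

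MEFs and ESCs gave the range of the lysosomal genes outside the NSCs. In MEFs 15 of the 24 genes were higher than in brain-NSCs and none was lower, while 11.9% of all genes were higher and 12.2% were lower. The median change was 1.44 against -0.05. All 24 genes had a change above 0, and both MEF arrays were above all 12 other arrays in 16 genes, against 19.3% of all genes. Ctsz, a carboxypeptidase, read 11.03 and 10.96 in MEFs and 7.69 and 7.53 in brain-NSCs, while iPS-cNSCs were at 8.35 and 8.13. Its log2 change in MEFs was 3.38 (SE 0.11, adjusted p = 3.28e-13). Hexa read 12.36 and 12.31 in MEFs, above all other arrays, with a change of 3.38 (SE 0.14, adjusted p = 3.56e-12).

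Gaa, which degrades glycogen, read 12.51 and 12.46 in MEFs and between 9.58 and 10.11 on all other arrays. Its change was 2.71 (SE 0.11, adjusted p = 2.25e-12), while no NSC group passed the rule for it. Ctsc was higher by 3.00 (SE 0.08, adjusted p = 3.13e-14) in MEFs. The other genes higher in MEFs were Man2b1, Ctsb, Tpp1, Neu1, Cd63, Npc2, Asah1, Scarb2, Ctsd, Lamp2 and Ctsl, with changes from 1.06 for Ctsl to 2.16 for Man2b1. Ctsd was not above background in brain-NSCs and was at least 2.43-fold higher in MEFs, and Ctsl was under 2-fold (0.99) without MEF replicate 2. In MEFs 7 of 12 microglial markers and all 8 fibroblast markers were above background on both arrays. The part of these markers' cells in the MEF values was not tested. The other lysosomal lists also moved in MEFs, with 9 of 16 other hydrolases, 6 of 17 sorting and membrane genes, 4 of 17 V-ATPase subunits and 2 of 3 inhibitors higher. So were 4 of 6 MiT/TFE regulators and partners (Fnip1, Rragc, Flcn and Tfe3). Serpinb6a rose by 4.66 and Cstb by 3.03 among the inhibitors, and 1 gene of each of the first 3 lists was lower.

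ESCs had 5 lysosomal genes higher and 2 lower than brain-NSCs, against 9.28% and 11.3% of all genes, with a median of 0.16 against 0.04. Ctsz was at 9.03 and 9.11 (log2 change 1.46, SE 0.11, adjusted p = 1.33e-08), and Ctsc had a change of 1.44 (SE 0.08, adjusted p = 3.37e-10), or 0.94 with the mean of its probes. Hexa (1.41), Man2b1 (1.19) and Ctsl (1.17) were also higher. Man2b1 lies on chromosome 8, whose genes had a median change of 0.38 in ESCs against 0.03 elsewhere, and the part of the chromosome was not tested. Lamp2 was lower, at 11.58 and 11.25 in ESCs and 12.95 and 13.17 in brain-NSCs (-1.65, SE 0.11, adjusted p = 1.11e-09). Psap, the precursor of the saposins that present lipids to hydrolases, read 12.001 and 11.989 in ESCs and 13.64 and 13.44 in brain-NSCs (-1.54, SE 0.09, adjusted p = 3.15e-10). For both genes the ESC arrays were below all 12 other arrays. ESCs were grown on MEF feeders, and 4 of 8 fibroblast markers were above background on both ESC arrays, with mean levels of 8.17 to 8.20 against 11.27 to 11.37 in MEFs. The part of feeder RNA in the ESC values was not tested.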

How the data were processed

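Labelled cRNA was hybridized to 14 arrays, 2 for each of 7 groups taken from the labels, and signals were extracted by the authors with GenomeStudio 2011.1 (submitters' processing notes). The deposited log2 values had been quantile normalized by the authors. A second deposited table holds intensity before normalization and detection p-value per probe, of which 10 signal columns matched an array by name and 8 columns were not used. The number of arrays limits the precision.

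The deposited log2 value at which the detection p crosses 0.05 was 7.68 to 7.74 on the matched arrays, and 7.7 was used. Probes at or above it on 7 of 14 arrays (12195 of 25697) were quantile normalized again, which changed values by at most 0.162. Genes were named from the platform table, and a gene was represented by its brightest kept probe. Second probes are named where kept. A model with 1 mean per group was fitted with limma 3.58.1 in R 4.3.3 over all arrays. Changes are differences of normalized log2 values. Code was tested on simulated data. E-boxes were counted in RefSeq promoter windows.

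The list of genes, the other lists and the tests were chosen with earlier results of these data known. Values of each array are given for Ctsc, for genes passing the rule among NSC groups, and for the 4 largest changes in ESCs and MEFs. Other lists give at most 2 genes each. Alternatives were the filter, the second normalization, the probe rule, adjusted p alone, the local-pooled-error test of the methods, an intensity trend, a replicate block, each array left out, and median scaling or neqc of the intensities.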

Additional observations from a re-analysis of the deposited data

Results flagged for a closer look

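Gusb differed between iPS-NSC lines made by the same in vitro route, with line #1 at least 6.4-fold above line #3 (adjusted p = 1.7e-12, limma). The measured log2 difference was 3.11, but line #3 was not above background on any of the 3 Gusb probes on either array, so it is no exact value.

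Ctsc differed between iPS-cNSCs and NED-cNSCs, which both came from chimeric embryos, by 4.85 on the log2 scale. The gene was chosen with this rise known. Npc2 differed between the same groups by 1.15 (adjusted p = 9.06e-08), above brain-NSCs in iPS-cNSCs and below them in NED-cNSCs on both arrays.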

How the results depend on the processing

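All 40 changes past the rule, which include those of Ctsc, kept their direction in every alternative that could be run. Of 906 repeats 11 fell under 2-fold, for Lamp1, Cd63, Neu1, Gusb, Ctsc and Ctsl. Counts of lysosomal genes moved most with adjusted p alone, to 19 (iPS-cNSCs), 11 (NED-cNSCs), 16 (iPS-NSCs) and 18 (ESCs) relative to brain-NSCs. They moved to 18 and 16 for iPS-cNSCs relative to iPS-NSCs and NED-cNSCs (17 and 15 of 23 without Ctsc), and to 10 between the lines. Relative to iPS-NSCs 16 were higher and 2 lower in iPS-cNSCs, against 28.3% and 35.8% of all genes. Relative to NED-cNSCs 14 were higher and 2 lower (23.2% and 30.7% of all genes). Between the lines 7 were higher and 3 lower in line #1 (14.5% and 15.8%). Relative to brain-NSCs, 19 of 24 were higher and none lower in iPS-cNSCs, against 25.9% and 31.4% of all genes. The 19 include Ctsc, which was on the list because of its rise, and without it the count was 18 of 23. In NED-cNSCs 10 were higher and 1 lower (20.2% and 18.6% of all genes). In iPS-NSCs 12 were higher and 4 lower (22.7% and 24.1%), and in ESCs 10 and 8 (35.8% and 32.6%). With neqc of the intensities, 10 genes passed in iPS-cNSCs relative to brain-NSCs and 4 relative to NED-cNSCs. Both counts include Ctsc, and the share of all genes passing with neqc was not counted. With the mean of probes, 1 passed in iPS-NSCs, since Gusb was at -0.97. The cause of these shifts was not tested. Leaving out an array gave 5 to 6 genes in iPS-cNSCs, 2 to 3 in NED-cNSCs and 14 to 16 in MEFs relative to brain-NSCs. Under median scaling the median over all genes, for iPS-cNSCs relative to brain-NSCs, went from -0.04 to -0.23, and 6 lysosomal genes passed with a median of 0.56. Over all alternatives Ctsc ranged from 4.15 (mean of probes) to 6.66 (neqc) in iPS-cNSCs relative to brain-NSCs. Scaling and neqc could be run only without the iPS-NSC lines, whose signal columns were not matched. Removing chromosome 8 was chosen after seeing the data. Replicate numbers did not pair the arrays: of 21 pairs of groups 3 had a correlation of deviations over 0.1 (range -0.24 to 0.12), and a replicate block gave 6, 3, 2, 4, 2, 1, 7 and 15 genes in the 8 comparisons, as without it.

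Changes of genes near the detection level, such as Ctsd, Ctsz and Ctsl in brain-NSCs, are limited by background signal. Each group has 2 arrays, replicate arrays correlated at 0.989 (iPS-cNSCs) to 0.998 (MEFs), and the MEF and iPS-cNSC arrays had lower lowest signals (79.8 to 96.2) than the other matched arrays (119 to 132).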
